A study of Mus musculus with 35 samples.

Results

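The response of the hypothalamus to a fast was measured in male mice that carry PER2-S662D, in which a serine of the clock protein PER2, where the protein is phosphorylated, is replaced by aspartate. The comparison rests on 10 libraries, chosen by their titles from 35 in the series: 5 from S662D mice fed ad libitum and 5 from S662D mice from which food was withheld for 16 h, from Zeitgeber time 0 (lights-on) to Zeitgeber time 16, when tissue was taken. The strain of the S662D mice and of all other groups is given as B6/J, and fed and fasted S662D mice share the mutation. Control mice of the same sex, strain and time, fed (n = 10) or fasted (n = 10), are used to show where the S662D response differed. How the mutation was introduced, whether the wild-type allele remains and whether each library comes from 1 mouse are not given in the sources used here. The p-values therefore measure the spread between libraries. That spread was estimated over all 35 libraries of the series, 5 of them from fasted mice labelled Per2 knockout. RNA was read as a block of tissue, so fewer cells of a type and less RNA per cell cannot be told apart.

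During a fast, glucocorticoids from the adrenal gland bind the glucocorticoid receptor, which enters the nucleus and induces genes such as Sgk1, Fkbp5 and Tsc22d3 in neurons, glia and vessels. At the same time insulin falls, which releases FoxO transcription factors, and fatty acids rise, which activate the receptors of the PPAR family that drive fat oxidation. The hypothalamus reads these signals through neurons that express Npy and Agrp, which promote feeding, and Pomc, which restrains it. PER2 and PER1 close the negative loop of the circadian clock, and Per1 is also a direct target of the glucocorticoid receptor.

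The S662D libraries held 18237587 to 37027342 counts when fed and 21615313 to 34081435 when fasted, and no pair agreed within sampling noise. The hypothalamic markers were present: all 15 of a list that includes Otp, Sim1, Nkx2-1, Agrp and Pomc were tested, and their sum was 612 to 748 CPM (counts scaled to a library of 1000000) in fed and 563 to 761 CPM in fasted libraries. Choroid plexus markers, which come from tissue beside the ventricle, stood apart in fed replicates 2 and 5 (715 and 694 CPM summed over 10 genes) and fasted replicate 5 (308 CPM), against 26.6 to 62.8 CPM in the other libraries. In the file headers, replicates 2, 3 and 4 of both groups carry a library number with an additional final digit, whose meaning is not given, and replicates 1 and 5 do not. The first principal component (20.8% of the variance) put fasted replicates 2, 3 and 4 at 22.4 to 26.0, and fasted replicates 1 and 5 at −10.4 and −6.31. The latter lay within the range of the fed libraries (−24.7 to −2.29) but above fed replicates 1 and 5. Fed libraries also split by set, with replicates 1 and 5 at −14.9 and −24.7 and replicates 2, 3 and 4 at −8.83 to −2.29. Fasted replicate 1 gave the smallest rise of any fasted library, and it also had the highest sum of blood markers (1041 CPM over 5 genes, against 384 to 627 CPM in the other libraries). Results are therefore given for both replicate sets for some genes and lists and, for some, without fasted replicate 1.

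Fasting changed 476 of 18063 genes tested in S662D hypothalamus, which is 2.64% (edgeR's quasi-likelihood test, Benjamini-Hochberg adjusted p below 0.05, termed called from here on). Of these, 326 were higher in fasted mice (1.8% of the genes tested) and 150 were lower (0.83%). A total of 54 rose and 8 fell by more than 2-fold, and the median absolute log2 fold change of the called genes was 0.42. All 5 fasted libraries lay above all 5 fed libraries for 354 genes (1.96%) and below them for 242 (1.34%), and 292 of the 476 called genes were in 1 of these classes. Without scaling beyond library size the split turned, with 262 higher and 328 lower of 590 called genes, that is 44.4% higher in place of 68.5%, while the median over all genes moved by −0.037. Directions given below for gene lists held under TMM, size factors and upper quartile scaling and without scaling, unless stated.

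The promoters below are shown because they belong to a gene of each of 3 groups the results turn on: glucocorticoid targets, the clock and sterol synthesis. Each window runs from 250 bases before to 50 bases after a RefSeq start site on the plus strand (GRCm38.p6). Capitals mark the motif named, found by search on both strands.
Sgk1, the fifth of 6 start sites, chr10:21993640-21993939, palindromic glucocorticoid response element (AGAACA and TGTTCT 3 bases apart) at −189 to −175 from the start: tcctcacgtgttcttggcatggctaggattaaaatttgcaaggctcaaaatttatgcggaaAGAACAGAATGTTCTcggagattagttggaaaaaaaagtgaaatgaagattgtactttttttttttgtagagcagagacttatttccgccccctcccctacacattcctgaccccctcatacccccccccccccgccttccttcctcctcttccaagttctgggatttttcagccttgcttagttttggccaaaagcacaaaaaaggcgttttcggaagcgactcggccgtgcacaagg
Per1, 1 of 2 start sites, chr11:69098699-69098998, E-box CACGTG at −166 to −161: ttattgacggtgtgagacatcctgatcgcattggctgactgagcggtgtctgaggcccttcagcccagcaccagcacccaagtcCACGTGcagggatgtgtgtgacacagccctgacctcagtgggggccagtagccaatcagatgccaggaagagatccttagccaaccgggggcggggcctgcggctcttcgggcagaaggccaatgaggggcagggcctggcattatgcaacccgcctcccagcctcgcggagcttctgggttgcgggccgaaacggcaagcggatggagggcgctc
Hmgcs1, its 1 start site in the table, chr13:119690101-119690400, sterol regulatory element TCACNCCAC at −137 to −129: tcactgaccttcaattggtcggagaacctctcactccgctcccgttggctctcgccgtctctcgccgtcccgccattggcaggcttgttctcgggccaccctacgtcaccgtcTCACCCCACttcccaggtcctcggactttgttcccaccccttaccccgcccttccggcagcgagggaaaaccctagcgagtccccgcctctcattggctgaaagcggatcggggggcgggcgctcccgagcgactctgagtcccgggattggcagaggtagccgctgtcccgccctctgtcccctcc
The palindromic element occurred in 3 of the 32851 windows of the table (0.00913%), and 1 of these is the Sgk1 window shown. Its half-site AGAACA, which is part of the palindrome, occurred in 19.0% of all windows and in 15.1% of the 357 windows matched to 262 of the 326 genes called higher. The E-box lay in 7.15% of all windows and in 9.24% of those of the genes called higher, and the sterol element in 1.24% of all windows and in 1 of 20 windows of the sterol list. A match is a description of the letters in these windows only.

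Of the 10 largest rises at a mean of at least 1 CPM, 5 belonged to a list of glucocorticoid targets: Cdkn1a, Sgk1, Plin4, Arrdc2 and Hif3a. All 23 genes of that list were called higher, against 1.8% of all genes, and their median log2 fold change was 1.18, against 0.00 over all genes tested. The list was drawn up with earlier results of these data known, so its count is a description. Sgk1, a kinase that regulates ion channels and transporters (chromosome 10, 21882184 to 21999903), stood at 52.9, 40.6, 46.4, 44.9 and 48.2 CPM in fed replicates 1 to 5 and at 155, 302, 319, 279 and 284 CPM in fasted replicates 1 to 5 (replicates are given in this order throughout). Every fasted library was far above every fed one, and fasted replicate 1 was the lowest of the fasted. The log2 fold change was 2.53 (SE 0.22, edgeR adjusted p = 8.53e-09), a rise of 5.76-fold, and without fasted replicate 1 it was 2.67.

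Cdkn1a, which encodes the cell cycle inhibitor p21 (chromosome 17, 29090979 to 29100722), had 11.4, 9.82, 10.6, 12.3 and 10.3 CPM when fed. The fasted libraries held 17.7, 100, 94.9, 47.5 and 72.0 CPM. All fasted libraries were higher than all fed ones, but their spread was wide, 66.5 ± 34.4 CPM (SD, n = 5) against 10.9 ± 0.957 (SD, n = 5), and replicate 1 rose least. The log2 fold change of 2.61 (SE 0.40, adjusted p = 8.51e-05 in edgeR's test) was 2.86 without fasted replicate 1.

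Plin4, a coat protein of lipid droplets (chromosome 17, 56100591 to 56109803), had a mean of 21.3 ± 5.45 CPM when fed and 91.0 ± 31.3 CPM when fasted (SD of 5 libraries each, as for all such values), with fed libraries at 15.6 to 29.2 CPM and fasted ones at 43.4 to 119 CPM. Arrdc2, an arrestin-domain protein (chromosome 8, 70835129 to 70839720), rose from 12.1 ± 1.46 to 49.8 ± 15.4 CPM, with fasted replicate 1 at 23.0 CPM and the other fasted libraries at 50.8 to 59.3 CPM. Hif3a, a member of the hypoxia-inducible factor family (chromosome 7, 17031507 to 17062427), rose from 4.87 ± 1.57 to 17.6 ± 4.95 CPM. For none of these 3 genes did the groups overlap, and the log2 fold changes were 2.09, 2.05 and 1.84.

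Among the other members, Tsc22d3 (the glucocorticoid-induced leucine zipper protein; chromosome X, 140539528 to 140600659) doubled, from 99.8 ± 4.73 to 208 ± 41.5 CPM (log2 fold change 1.06, adjusted p = 1.23e-07 in edgeR's test). Nfkbia, the inhibitor of NF-kappaB, had a log2 fold change of 1.34, Sult1a1, a sulfotransferase, 1.55 and Fkbp5, a co-chaperone that dampens the receptor itself, 0.97. The metallothioneins Mt1 and Mt2, which bind zinc and copper, had log2 fold changes of 0.92 and 1.60. Mt2, Gpd1 and Cebpd overlap other genes over at least 10% of their exon bases, so their counts are uncertain. Fasted replicate 1 was the lowest fasted library for 22 of the 23 genes. The list's summed level was 995 to 1066 CPM in fed libraries and 1446, 2502, 2587, 1998 and 2136 CPM in fasted ones, so fasted replicate 1 sat between the groups' other libraries. The count of members called was 22 or 23 when any 1 of the 10 libraries was left out, and 20 when the 10 S662D libraries were fitted without the other groups.

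**Figure D1:**
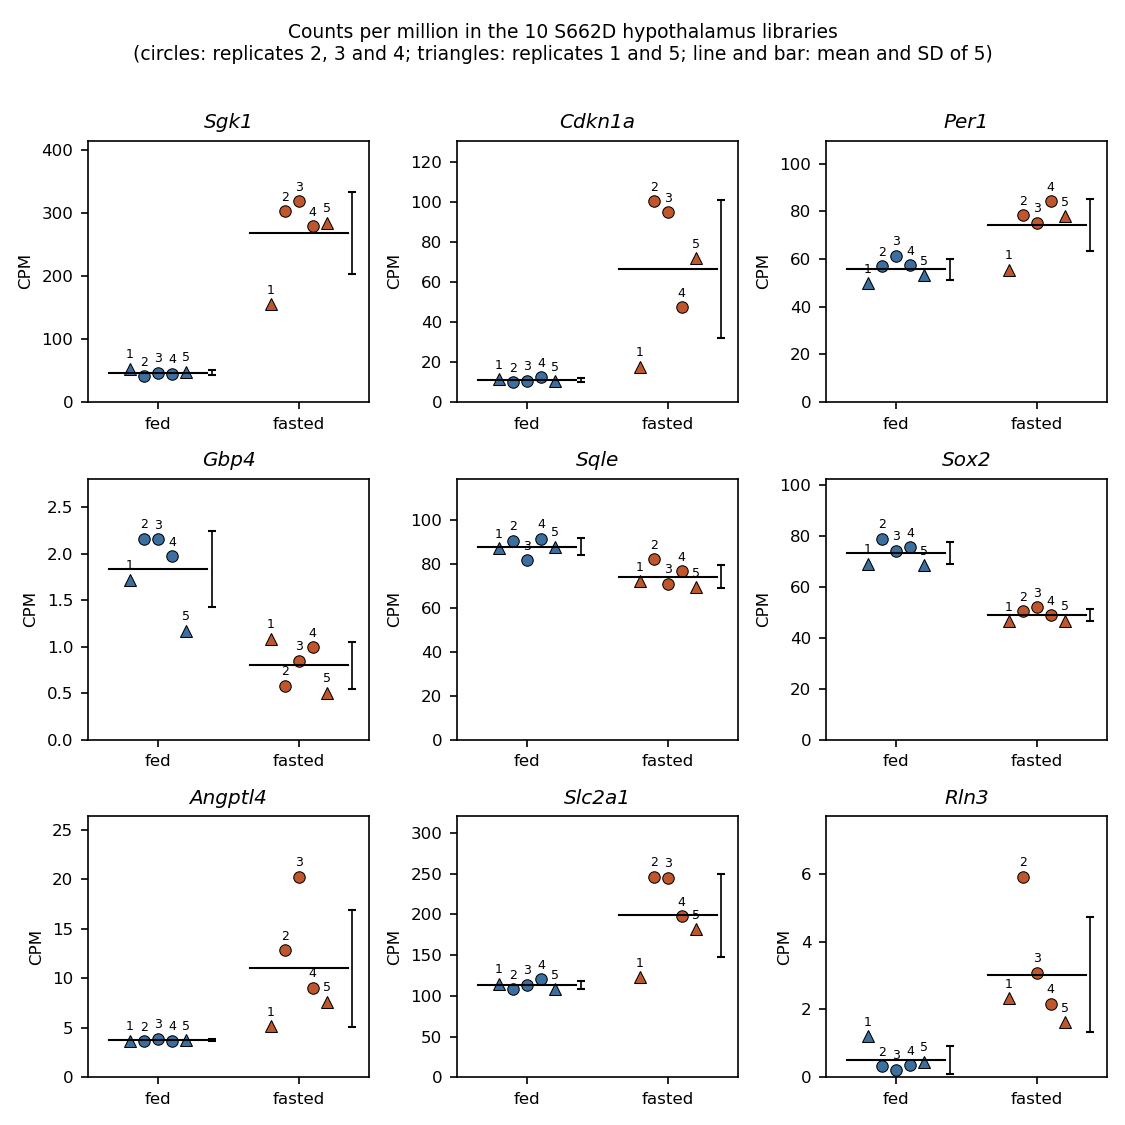
CPM (vertical axes, from 0) of 9 genes in the 5 fed and 5 fasted S662D libraries; numbers are replicates, circles replicates 2, 3 and 4, triangles replicates 1 and 5, lines and bars the mean and SD of 5. Sgk1 in fasted mice lies at 155 to 319 CPM, all above the fed libraries, with replicate 1 lowest, whereas Sox2 in fasted mice lies at 46.5 to 52.0 CPM, all below the fed libraries at 68.5 to 78.8 CPM.

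Genes of fat oxidation and ketone synthesis rose in part. Of 35 tested, 5 were called higher and 0 lower, against 1.8% and 0.83% of all genes, with a list median of 0.07. Angptl4, a secreted inhibitor of lipoprotein lipase and a PPAR target (chromosome 17, 33773750 to 33781575), had 3.69, 3.67, 3.92, 3.69 and 3.76 CPM when fed and 5.18, 12.9, 20.3, 9.07 and 7.65 CPM when fasted. The fed libraries were nearly equal and every fasted one was higher (log2 fold change 1.54, SE 0.23, adjusted p = 4.77e-05 in edgeR's test). Pdk4, the kinase that shuts pyruvate dehydrogenase and so spares glucose (chromosome 6, 5483351 to 5496309), rose from 9.15 ± 0.494 to 19.9 ± 4.78 CPM without overlap (log2 fold change 1.11). Ucp2, a mitochondrial carrier, rose by a log2 fold change of 0.47, with fasted replicate 1 (65.0 CPM) inside the range of the fed libraries (57.7 to 66.5 CPM), and Pdk2 by 0.25. The other 30 genes were not called, leaving out 1 library gave 4 to 7 called members, and the 10 S662D libraries fitted alone gave 3.

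Of 25 genes of sterol synthesis and uptake tested, 5 were called lower, by small amounts, and 0 higher, against 0.83% and 1.8% of all genes. A total of 21 of the 25 had a log2 fold change at or below 0, and the list median was −0.13. Sqle, squalene epoxidase (chromosome 15, 59315077 to 59331192), had 87.0, 90.4, 81.4, 91.3 and 87.8 CPM in fed libraries and 72.2, 82.0, 70.8, 76.5 and 69.2 CPM in fasted ones. Only fasted replicate 2 lay above a fed library, replicate 3, and the log2 fold change was −0.24 (SE 0.06, adjusted p = 0.00568 in edgeR's test). In a fit with replicates 2 to 4 as the only S662D libraries Sqle missed the threshold (−0.20, adjusted p = 0.114). Hmgcs1, a synthase early in the pathway (chromosome 13, 119690462 to 119708086), fell from 245 ± 13 to 214 ± 10.9 CPM (−0.20), and its counts are uncertain because other genes' transcripts hold 11.6% of its 50-base words. Stard4, a cholesterol carrier, and Cyp51, a demethylase of the pathway, fell by 0.24 and 0.17 on the log2 scale. Insig1, which holds SREBP proteins in the endoplasmic reticulum, was at 0.02 and was not called (adjusted p = 0.934 by edgeR).

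The summed level of the 25 sterol genes was 1648 to 1775 CPM in fed and 1488 to 1599 CPM in fasted libraries, without overlap. The count of 5 moved with single libraries. It was 2 without fed replicate 2, fasted replicate 2 or fasted replicate 3, and 4 to 6 without any other library. DESeq2 called 8, as did edgeR without scaling beyond library size, whereas edgeR called 3 without a filter on low counts and 1 with the 10 S662D libraries fitted alone, all lower. Stard4 lost its call without fed replicate 2 or 3 or fasted replicate 2, 3 or 5 (0.0591 to 0.125). In control mice 0 of the 25 were called by edgeR, and the median was −0.04. Of the 24 fatty acid synthesis genes, Srebf1, the transcription factor that drives lipid synthesis (chromosome 11, 60199089 to 60222581), fell from 119 ± 5.03 to 101 ± 3.71 CPM without overlap (−0.23, adjusted p = 0.00626 in edgeR's test). Fads2, a desaturase, fell by 0.19 on the log2 scale, a call that was lost when any of 7 libraries was left out, fed replicates 1, 2, 4 and 5 and fasted replicates 1, 3 and 5 (adjusted p 0.0536 to 0.102). Acacb, the acetyl-CoA carboxylase of the mitochondrial surface, rose (0.43), with its call lost without fed replicate 4 (adjusted p 0.0547) or fasted replicate 3 (0.11).

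**Figure D2:**
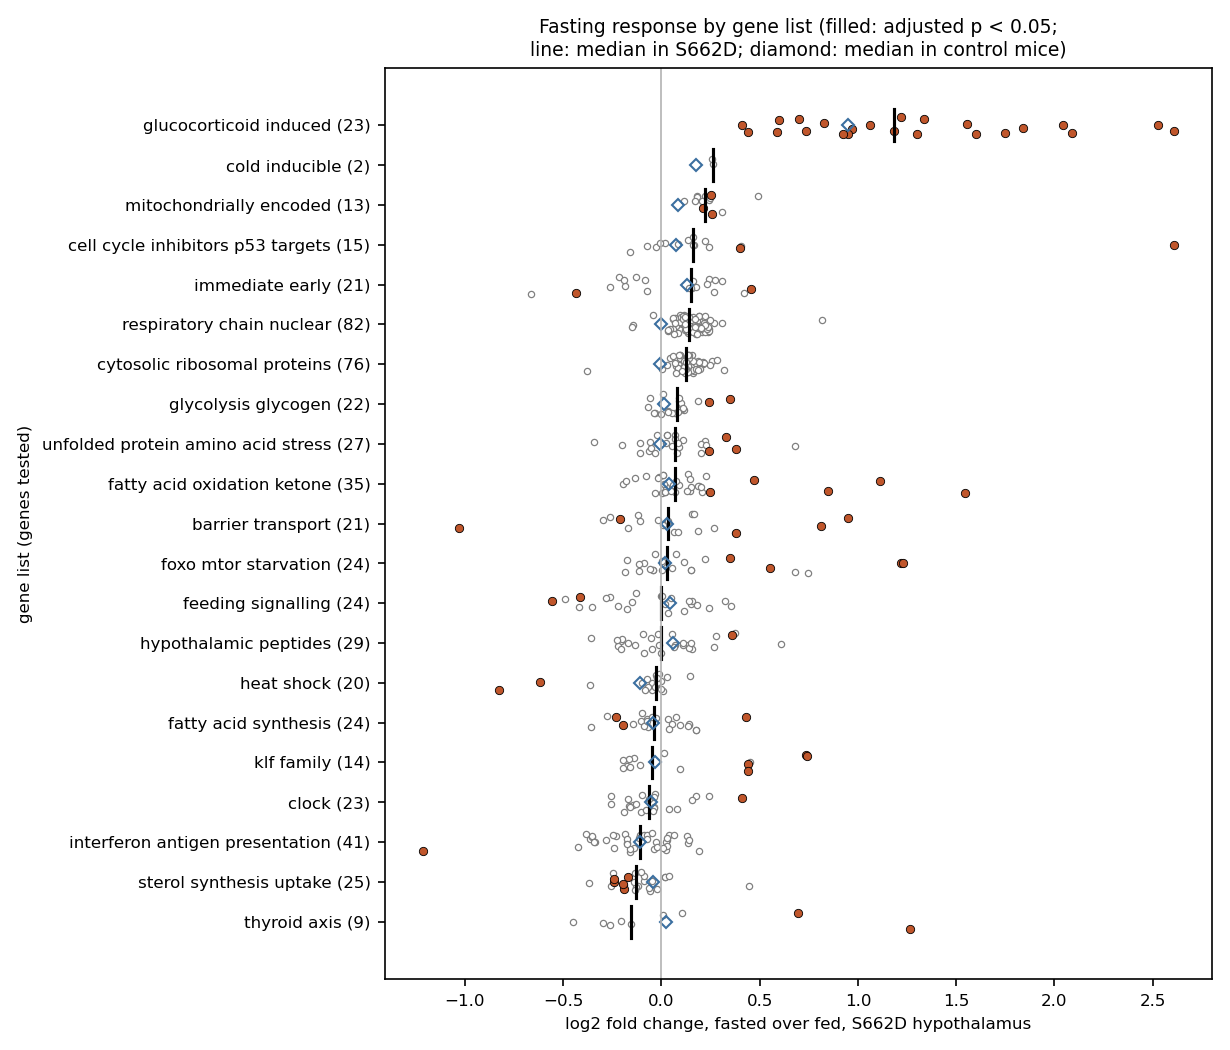
Log2 fold change of fasted over fed S662D mice (horizontal axis) for every tested gene of 21 lists (rows, with the number tested); filled points passed an adjusted p of 0.05, black lines are list medians, and diamonds are the same median in control mice. All 23 glucocorticoid genes lie right of 0, while the 5 called sterol genes lie left of it.

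Targets of FoxO and sensors of energy rose in part, with 4 of 24 called higher, against 1.8% of all genes, and 0 lower (median 0.03, which was −0.01 without scaling beyond library size). Ddit4, an inhibitor of the growth kinase mTOR (chromosome 10, 59949675 to 59951770), had 40.7, 37.9, 46.3, 37 and 42.7 CPM in fed and 62.4, 114, 107, 87.7 and 105 CPM in fasted libraries. All fasted libraries were higher (log2 fold change 1.22, SE 0.15, adjusted p = 2.82e-06 in edgeR's test). Txnip, a brake on glucose uptake (chromosome 3, 96557957 to 96561883), rose from 17.3 ± 2.26 to 40.5 ± 8.75 CPM, although 19.4% of its exon bases overlap another gene and its counts are uncertain. Arrdc3 and Cited2 rose by 0.55 and 0.35 on the log2 scale. Of 14 genes of the KLF family of transcription factors, 4 were called higher, against 1.8% of all genes, and the family's median was −0.05. These 4 were Klf15 (0.74), Klf2 (0.74), Klf9 (0.44) and Klf13 (0.44), and for each the fed and fasted groups overlapped. Of 15 cell cycle inhibitors and p53 targets, 2 were called higher, Cdkn1a and Trp53inp1, against 1.8% of all genes. Cdkn1a, like Klf15, also belongs to the glucocorticoid list. Trp53inp1 (0.40) lost its call without fasted replicate 3 (adjusted p 0.0769).

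Transporters of the blood-brain barrier moved in both directions, with 3 of 21 called higher and 2 lower, against 1.8% and 0.83% of all genes. With the 10 S662D libraries fitted alone the counts were 2 and 0. Slc2a1, the main glucose carrier of brain vessels and glia (chromosome 4, 119108711 to 119137983), had 115, 108, 114, 120 and 108 CPM when fed and 123, 246, 245, 198 and 182 CPM when fasted. Fasted replicate 1 lay just above the fed libraries and the others well above (log2 fold change 0.81, SE 0.11, adjusted p = 6.22e-06 in edgeR's test). Mfsd2a, which carries lysophospholipids with docosahexaenoic acid (chromosome 4, 122946850 to 122961188), rose from 31.3 ± 2.88 to 60.6 ± 18.5 CPM (0.95), with fasted replicate 1 at 34.8 CPM, within the fed range of 27.9 to 35.1 CPM. Slc7a5, a carrier of large neutral amino acids, rose by 0.38. Slc38a5, a carrier of glutamine (chromosome X, 8271133 to 8280179), fell from 1.90 ± 0.376 to 0.906 ± 0.423 CPM without overlap, a fold of 0.489, but its call was lost without fed replicate 1 or 3 or fasted replicate 3, 4 or 5 (adjusted p 0.0519 to 0.122). Slc6a6, the taurine carrier, fell by 0.21 on the log2 scale. Endothelial markers beside these were called in both directions, 2 of 14 higher (Ly6c1 and Esam) and 2 lower (Kdr and Itm2a), and their sum was 325 to 369 CPM in fed and 294 to 384 CPM in fasted libraries. Their part in the result was not tested.

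Of the clock genes, 1 of 23 was called (4.35%, against 2.64% of all genes). Without scaling beyond library size 2 others were called lower, as with replicates 2 to 4 as the only S662D libraries. Per1 (chromosome 11, 69095217 to 69109960), which also belongs to the glucocorticoid list, had 49.7, 56.9, 61.3, 57.4 and 53.3 CPM when fed and 55.5, 78.4, 75.2, 84.3 and 77.8 CPM when fasted. Fasted replicate 1 lay within the fed range and the other fasted libraries above it (log2 fold change 0.41, SE 0.08, adjusted p = 0.000589 in edgeR's test), and without replicate 1 the value was 0.50. Per2, the mouse gene that encodes PER2 (chromosome 1, 91415982 to 91459324), had 17.3, 20.3, 21.4, 17.9 and 16.9 CPM when fed and 16.4, 20.1, 21.3, 22.7 and 18.9 CPM when fasted. Whether this copy carries the mutation is not given in the sources used here. The groups overlapped throughout and the change was not called (0.08, SE 0.08, adjusted p = 0.708 by edgeR). These counts do not distinguish mutant from wild-type transcripts. Nr1d1 and Dbp, which are driven by the core clock, had log2 fold changes of −0.15 and −0.25 and were not called (adjusted p 0.248 and 0.408 by edgeR). Other genes cover more than 10% of the exon bases of Dbp, so its counts are uncertain. The clock list's median was −0.06.

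Of 29 neuropeptide genes tested, 1 was called (3.45%, against 2.64% of all genes), Vgf, a granin that is cleaved into several peptides (chromosome 5, 137026392 to 137033351). It rose from 268 ± 32.1 to 343 ± 52.1 CPM (log2 fold change 0.36, adjusted p = 0.0212 in edgeR's test), with overlap between the groups, and its call was lost without fed replicate 1, 2 or 5 or fasted replicate 2 or 3 (adjusted p 0.0634 to 0.0914). Npy had 8.21 to 9.55 CPM in fed and 10.1 to 15.1 CPM in fasted libraries. All 5 fasted libraries were above the fed ones, yet the change of 0.38 missed the threshold (SE 0.12, adjusted p = 0.0786 by edgeR). Agrp, whose exons overlap other genes over at least 10% of their bases, was at 0.13 (SE 0.22, adjusted p = 0.840) and Pomc at 0.00 (SE 0.17, adjusted p = 0.998), both by edgeR and with overlapping groups.

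Of 24 genes of feeding signalling, 2 were called lower, against 0.83% of all genes, and with the 10 S662D libraries fitted alone the count was 0. Npy2r, a receptor for peptide YY and neuropeptide Y (chromosome 3, 82538383 to 82548084), fell from 16.0 ± 2.69 to 12 ± 1.48 CPM (−0.41), and lost its call without fed replicate 4 (adjusted p 0.132) or fasted replicate 4 (0.0584). Glp1r, the receptor for glucagon-like peptide 1 (chromosome 17, 30901867 to 30936510), fell from 4.28 ± 0.843 to 2.92 ± 0.627 CPM (−0.56), and lost its call without fed replicate 3, 4 or 5 or fasted replicate 2, 4 or 5 (adjusted p 0.0764 to 0.143). Ghsr, the ghrelin receptor, was at 0.32 and was not called (adjusted p = 0.252 by edgeR).

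Of the thyroid axis, 2 of 9 genes were called higher, against 1.8% of all genes, and 0 lower. The list median was −0.155, and 4 of the 9 were above 0. Hr, a corepressor induced by thyroid hormone (chromosome 14, 70552212 to 70573548), went from 51.9 ± 5.46 to 125 ± 36.0 CPM without overlap (log2 fold change 1.27). Dio2, the deiodinase that forms active thyroid hormone in tanycytes and astrocytes (chromosome 12, 90724554 to 90738438), had 22.5 to 26.6 CPM when fed and 26.9, 45.5, 43.4, 42.3 and 36.4 CPM when fasted (0.70, adjusted p = 0.000722 in edgeR's test). Fasted replicate 1 lay just above the fed range. Dio2 is also 1 of 8 tanycyte markers, of which the vasodilator peptide Adm was called higher too (1.12, from 1.97 ± 0.363 to 4.23 ± 0.824 CPM) and 6 were not called, with a median of −0.12. The summed tanycyte markers were 147 to 199 CPM in fed and 158 to 196 CPM in fasted libraries.

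Cd180 and Gbp4 were among the 10 largest falls, at low levels. Cd180, a Toll-like receptor homologue of myeloid and B cells (chromosome 13, 102693558 to 102739629), had 1.67, 1.62, 1.71, 1.58 and 2.29 CPM when fed and 0.813, 0.464, 0.669, 0.661 and 0.741 CPM when fasted. All fasted libraries were lower (log2 fold change −1.38, SE 0.28, adjusted p = 0.00187 in edgeR's test). Gbp4, a guanylate-binding protein induced by interferon (chromosome 5, 105115767 to 105139586), had 1.72, 2.16, 2.15, 1.97 and 1.17 CPM when fed and 1.08, 0.580, 0.847, 0.992 and 0.504 CPM when fasted. The groups did not overlap, with fed replicate 5 closest to the fasted ones (−1.22, SE 0.26, adjusted p = 0.00241). Gbp4 was the 1 called gene of 41 (2.44%, against 2.64% of all genes) in the list of interferon and antigen presentation genes, whose median was −0.11.

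The relatives of Gbp4 in that list were not called, with Gbp2 at −0.34, Gbp5 at −0.36 and Gbp9 at −0.42. The interferon motif (TTTC and TTTC 2 bases apart) lay in 19 of 36 promoter windows of this list (52.8%), in 3.44% of all windows and in 1.96% of the windows of the genes called lower. Klhl6, a ubiquitin ligase adaptor of B cells and microglia (chromosome 16, 19946499 to 19983037), fell from 1.62 ± 0.130 to 0.880 ± 0.232 CPM (−0.87), with the call lost without fed replicate 4 or fasted replicate 2 or 3 (adjusted p 0.0544 to 0.0733). Tnfsf10, the death ligand TRAIL (chromosome 3, 27317028 to 27342427), fell from 2.33 ± 0.531 to 1.21 ± 0.481 CPM (−0.91), with overlap and with the call lost without fed replicate 3 or 5 or fasted replicate 2 or 3 (adjusted p 0.0507 to 0.103). Of 17 microglia markers, 2 were called lower, against 0.83% of all genes, and 0 higher. The 2 were Cx3cr1, the fractalkine receptor (−0.43), and Sall1, a transcription factor of microglia (−0.38). The sum of the microglia markers was 403 to 437 CPM in fed and 374 to 428 CPM in fasted libraries (exact two-sided permutation test, p = 0.167, adjusted p = 0.438 over 20 measures), and its part in these falls was not tested.

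The fall with the smallest p was that of Sox2, the transcription factor of neural stem cells and astroglia (chromosome 3, 34650405 to 34652461). It had 69.1, 78.8, 74.0, 75.5 and 68.5 CPM when fed and 46.5, 50.4, 52.0, 48.8 and 46.7 CPM when fasted. The groups were far apart and fasted replicate 1 did not stand out (log2 fold change −0.58, SE 0.05, adjusted p = 1.03e-09 in edgeR's test). Wnt7a, a secreted WNT ligand (chromosome 6, 91363981 to 91411363), fell from 17.2 ± 0.853 to 9.72 ± 2.50 CPM without overlap (−0.82, adjusted p = 9.59e-05). Gm266, a gene with no described role (chromosome 12, 111484611 to 111485823), fell from 6.15 ± 1.01 to 3.42 ± 1.07 CPM (−0.84). Samd3 (−0.78) and A730046J19Rik (−0.79) were called lower, each at under 3 CPM on average, but Samd3 lost its call without any of 7 libraries, fed replicates 2 to 5 and fasted replicates 1, 4 and 5 (adjusted p 0.0576 to 0.122), and A730046J19Rik lost its call without any library but fed replicate 1 and fasted replicate 5 (0.0692 to 0.133).

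Astrocyte markers were called in both directions, 2 of 13 higher (Gjb6 and Aldh1l1) and 1 lower (Sox9, −0.36), against 1.8% and 0.83% of all genes. Other genes cover 13.4% of the exon bases of Aldh1l1. The astrocyte markers summed to 3354 to 3754 CPM in fed and 3434 to 3968 CPM in fasted libraries. Oligodendrocyte markers summed to 8246 to 9743 CPM in fed and 9877 to 10460 CPM in fasted libraries, without overlap (exact two-sided permutation test, p = 0.00794, the smallest that 252 regroupings allow, adjusted p = 0.0529 over 20 measures). The structural myelin genes Mobp (0.40), Mal (0.33) and Cldn11 (0.24) were called higher, and Ugt8a, which makes galactolipids of myelin, was called lower (−0.51). Markers of oligodendrocyte precursors summed to 417 to 444 CPM in fed and 449 to 493 CPM in fasted libraries, with the same p-values, and 1 of 9, the sialidase Neu4, was called higher. Ependymal markers were below 0 in all 7 genes (median −0.24, 0 called by edgeR, 1 at an unadjusted p below 0.05). Their sum was 50.1, 70.0, 52.4, 54.0 and 73.5 CPM in fed and 42.0 to 55.9 CPM in fasted libraries. Fed replicates 2 and 5, which were high, were also the fed libraries high in choroid plexus markers. The other fed libraries lay within the fasted range. All 10 choroid plexus genes were below 0 too (median −1.10, 0 called by edgeR). The part of cell composition in the results, Sox2 included, was not tested.

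Further large rises fell outside these lists. Arl4d, a small GTPase (chromosome 11, 101665541 to 101667832), rose from 6.96 ± 1.12 to 29.9 ± 7.36 CPM, or 4.37-fold (log2 fold change 2.13, adjusted p = 1.23e-07 in edgeR's test). Plekhf1, an endosomal adaptor (chromosome 7, 38216972 to 38228016), had the smallest adjusted p of all genes, 4.63e-10, with 5.51, 3.62, 5.69, 4.34 and 5.94 CPM when fed and 11.3, 20.9, 14.7, 18.8 and 17.7 CPM when fasted. All fasted libraries were well above the fed ones (1.76, SE 0.15). Ada, adenosine deaminase (chromosome 2, 163726584 to 163750239), rose from 0.668 ± 0.118 to 2.23 ± 0.615 CPM without overlap (1.76).

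Rln3, the neuropeptide relaxin-3, which is made mainly in the brainstem (chromosome 8, 84042929 to 84045000), had 1.21, 0.324, 0.221, 0.358 and 0.457 CPM in fed and 2.34, 5.92, 3.08, 2.17 and 1.63 CPM in fasted libraries. The groups did not overlap, although levels were low and fasted replicate 2 was highest (log2 fold change 2.60, SE 0.56, adjusted p = 0.00505 in edgeR's test). Of 5 brainstem markers, 2 could be tested, and neither was called. Their sum was 0.883 to 1.57 CPM in fed and 1.04 to 1.56 CPM in fasted libraries, and its part in the Rln3 difference was not tested. Itgad, an integrin of myeloid cells (chromosome 7, 128154376 to 128223816), was called higher (2.25), but its groups overlapped and 19.7% of its exon bases overlap another gene, so its counts are uncertain.

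Transcripts of the mitochondrial genome were higher in each fasted library than in any fed one. Their share of all counts was 6.54%, 6.52%, 6.46%, 6.24% and 6.82% when fed and 8.27%, 6.85%, 6.93%, 6.86% and 7.70% when fasted. Fasted replicates 1 and 5 were highest, and the groups did not overlap (exact two-sided permutation test, p = 0.00794, adjusted p = 0.0529 over 20 measures). Of 13 protein-coding genes of this genome, 3 were called higher, against 1.8% of all genes, and the list's median log2 fold change was 0.22. The 3 were mt-Nd1 (0.26) and mt-Cytb (0.25), subunits of complexes I and III, and mt-Co1 (0.21), a subunit of complex IV. The counts of mt-Co1 are uncertain because other genes' transcripts hold 51.1% of its 50-base words. Without fasted replicate 1 the count was 0 by edgeR (13 tested, median 0.16), and mt-Cytb then had an adjusted p of 0.0593. The count was 1 without fed replicate 2, 3 or 4 or fasted replicate 5, and 1 without scaling beyond library size. mt-Nd1 and mt-Co1 lost their calls in these edgeR fits. DESeq2 called 5, and edgeR called 9 in the 10 S662D libraries with the replicate sets as a term, but 0 with replicates 2 to 4 as the only S662D libraries. Nuclear genes of the respiratory chain (median 0.14) and of cytosolic ribosomal proteins (median 0.13) had 0 called of 82 and of 76 by edgeR, with 23 and 12 at an unadjusted p below 0.05. DESeq2 also called 0 of each, whereas with the replicate sets as a term edgeR called 10 of 81 and 6 of 76, and with replicates 2 to 4 as the only S662D libraries it called 2 of 83 and 3 of 76, all higher. In control mice these 3 medians were 0.08, 0.00 and −0.01.

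**Figure D3:**
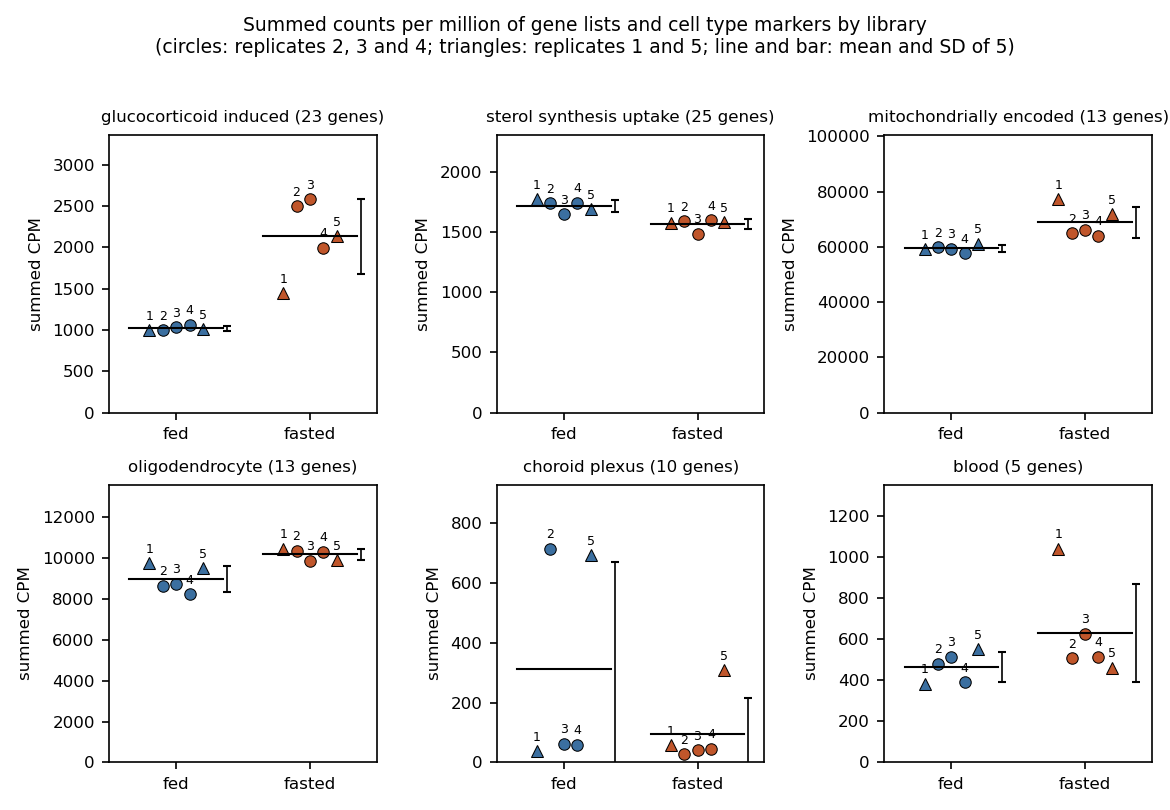
Summed CPM (vertical axes, from 0) of 6 gene lists or marker lists in each S662D library, with symbols as for the single genes; bars are the SD and are cut at 0 for the choroid plexus. Glucocorticoid, mitochondrial and oligodendrocyte sums are higher and sterol sums lower in fasted libraries without overlap, whereas choroid plexus markers are high in 3 libraries and blood markers in fasted replicate 1.

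The remaining lists held few called genes. Over all genes, 1.8% were called higher and 0.83% lower. Of 20 heat shock genes, Hspa1a (−0.62) and Hspa1b (−0.83), the inducible HSP70 genes, were called lower. They share most of their sequence, so their counts are uncertain, and both lost their calls in most fits without 1 library, with adjusted p up to 0.214 and 0.224, each without fed replicate 2. Of 21 immediate early genes, which mark recent neuronal activity, Gadd45b was called higher (0.45) and Ier5 lower (−0.43), while 19 were not called. Gadd45b lost its call without any library but fed replicate 5 and fasted replicate 5 (adjusted p 0.0765 to 0.152). Of 27 genes of the unfolded protein and amino acid responses, Slc7a5, Psat1 (0.33), an enzyme of serine synthesis, and Herpud1 (0.24) were called higher. Herpud1 lost its call without fed replicate 3 or 4 or fasted replicate 2, 3 or 4, and its value without fasted replicate 2 was 0.15 (adjusted p 0.229). Of 22 genes of glycolysis and glycogen use, Pygm, glycogen phosphorylase (0.35), and Aldoc, an astrocyte aldolase (0.24), were called higher. The cold-inducible genes Cirbp and Rbm3 were at 0.26 each and were not called (adjusted p 0.296 and 0.315 by edgeR), but both were called higher in the 10 S662D libraries with the replicate sets as a term.

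The response was then split by the replicate sets. Replicates 2, 3 and 4 called 735 genes (4.07% of those tested, 486 higher and 249 lower), of which 390 were among the 476 of all 10 libraries. Replicates 1 and 5 called 10 genes (0.0554%, 8 higher and 2 lower), 9 of them called in both sets. The median standard error was 0.115 in the larger set, 0.141 in the smaller and 0.093 over all libraries. Of the 735 genes, 583 (79.3%) had the same sign in replicates 1 and 5, with which they share no library, against 57.6% of all genes. Their median change was 0.43 in the set that called them and 0.14, signed by that set, in replicates 1 and 5. Since the 735 were chosen on the larger set, a smaller value elsewhere is in part a product of the choice.

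The genes called in both sets were Sox2, Plekhf1, Sgk1, Net1, Rhou, Fam43a, Arl4d, Tsc22d3 and Adipor2. Sox2 had log2 fold changes of −0.59 in replicates 2 to 4 and −0.56 in replicates 1 and 5. Net1, a guanine nucleotide exchange factor (chromosome 13, 3882565 to 3918220), had 0.82 and 0.81, and Fam43a 0.59 and 0.54. Sgk1 had 2.77 and 2.12, Plekhf1 2.03 and 1.34, Arl4d 2.35 and 1.78 and Tsc22d3 1.22 and 0.78. Rhou, an atypical small GTPase (chromosome 8, 123653929 to 123663884), had 0.81 and 0.51, and Adipor2, a receptor for adiponectin (chromosome 6, 119353150 to 119417704), 0.88 and 0.51. Adnp was called in replicates 1 and 5 alone (−1.02, against −0.04 in the other set), and it was not called over all libraries (−0.33, adjusted p = 0.497 by edgeR). Its exons overlap another gene over 82.1% of their bases, so its counts are uncertain.

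For the 5 genes that mark the response, the values in replicates 2 to 4 and in replicates 1 and 5 were 2.77 and 2.12 for Sgk1, 2.90 and 2.05 for Cdkn1a, 0.44 and 0.37 for Per1, −0.20 and −0.31 for Sqle and −1.38 and −0.88 for Gbp4. The 23 glucocorticoid genes had medians of 1.25 and 0.88, with 23 and 2 called. The 25 sterol genes had medians of −0.12 and −0.14, with 4 and 0 called by edgeR. The 13 mitochondrial genes had medians of 0.15 and 0.34. Some genes described above had wide gaps between the sets and were picked here for them. In the same order, Slc2a1 had 1.01 and 0.45, Angptl4 1.91 and 0.79 and Klf15 0.93 and 0.41. Txnip had 1.50 and 0.77, Herpud1 0.38 and 0.03 and Rln3 3.57 and 1.235. Larger changes in replicates 1 and 5 were seen for mt-Nd1 (0.15 and 0.40) and Hspa1a (−0.42 and −0.998), among others. The test of the difference between the sets called 0 genes by edgeR (lowest adjusted p 0.123, with 1151 genes at an unadjusted p below 0.05), and DESeq2 called 10.

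**Figure D4:**
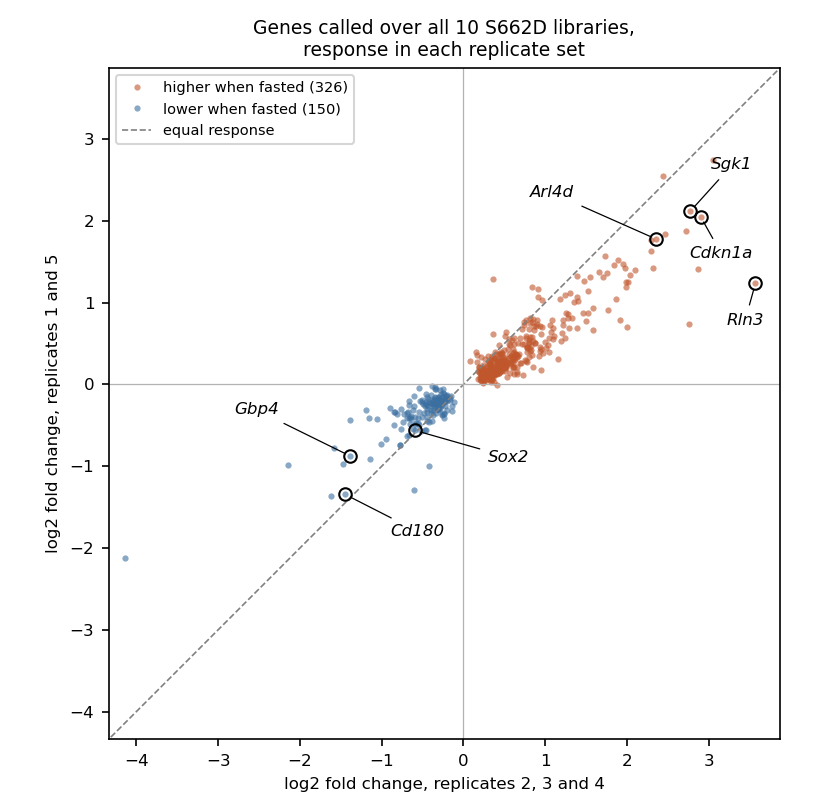
Log2 fold change of fasting in replicates 1 and 5 (vertical axis) against that in replicates 2, 3 and 4 (horizontal axis) for the 476 called genes, with the line of equal response dashed and 7 genes circled and named. A total of 475 of the 476 genes have the same sign in both sets, which the choice of genes on all 10 libraries favours.

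Within the fasted group the size of the response differed between libraries. Over the 326 genes called higher, the median log2 difference from the fed mean was 0.22 in fasted replicate 1 and 0.55, 0.57, 0.43 and 0.42 in fasted replicates 2 to 5. Over the 150 genes called lower it was −0.28, −0.45, −0.34, −0.25 and −0.39. Fasted replicate 1 was lowest for the rises but not for the falls, where replicate 4 moved least. Without fasted replicate 1, 585 genes were called, 427 of them among the 476, and without fasted replicate 2 there were 311, 304 of them among the 476. The glucocorticoid median was 1.34 and 1.15 in these fits.

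**Figure D5:**
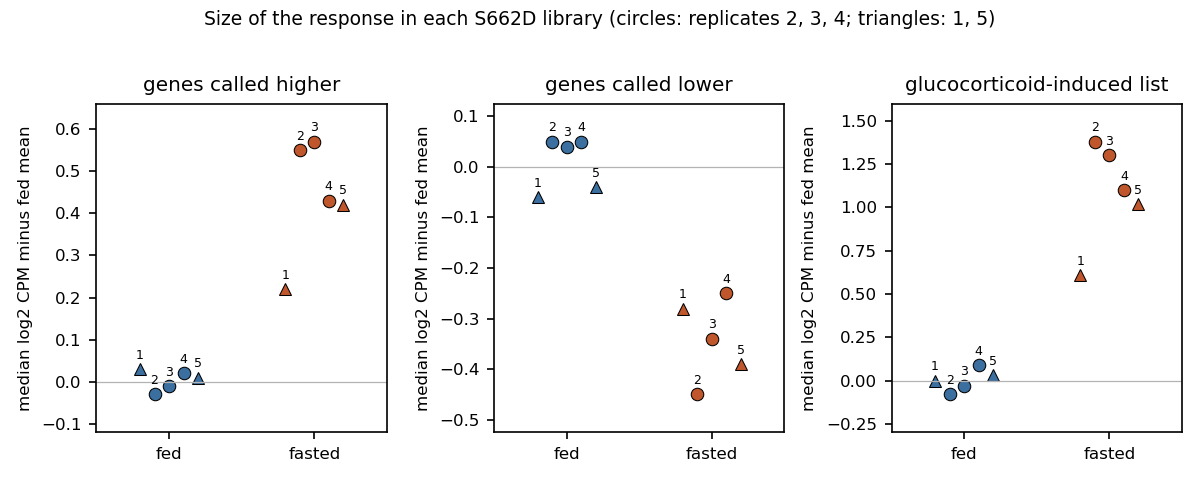
Median log2 CPM minus the mean of the fed libraries (vertical axes) over the 326 genes called higher, the 150 called lower and the 23 glucocorticoid genes, for each of the 10 S662D libraries. Fed libraries lie near 0, and fasted replicate 1 has the smallest rise (0.22 for the genes called higher and 0.61 for the glucocorticoid genes); the called genes were chosen on these libraries.

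The S662D response was last set beside that of control mice, in which fasting called 701 genes (3.88%). The groups share no library. Of the 476 genes called in S662D mice, 306 were also called in controls, and of the other 170, 157 had the same sign. Per1 had log2 fold changes of 0.41 in S662D and 0.36 in control mice, Cdkn1a 2.61 and 2.64, Sgk1 2.53 and 1.87, Sox2 −0.58 and −0.40 and Gbp4 −1.22 and −0.72. Tested directly, the difference in response between the genotypes called 0 genes by edgeR (lowest adjusted p 0.762, with 1151 at an unadjusted p below 0.05) and 0 by DESeq2 (1191). With control replicates 1 to 5 alone it called 486 genes, and with control replicates 6 to 10 alone 0. It called 9 with S662D replicates 2 to 4 alone.

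None of the differences that follow passed the adjusted threshold, and each is given with its unadjusted p. Rln3 had 2.60 in S662D and 0.21 in control mice (difference 2.38, p = 0.00128 in edgeR's test across all genes). Plekhf1 had 1.76 and 1.07 (difference 0.69, p = 0.000477), and Sgk1 differed by 0.66 (p = 0.0177). Sqle had −0.24 and −0.06 (difference −0.18, p = 0.0109). The fed levels differed as well. Mean CPM in S662D and control mice was 46.6 and 67.7 fed and 268 and 247 fasted for Sgk1. For Plekhf1 it was 5.02 and 7.45 fed and 16.7 and 15.6 fasted. Rln3 had 0.515 and 1.78 fed and 3.03 and 2.04 fasted, and Sqle 87.6 and 79.8 fed and 74.1 and 76.4 fasted. The differences in fed level were not tested here. Agrp had 0.13 and 0.61 (difference −0.47, p = 0.0916) and passed the threshold in controls (adjusted p = 0.020), while Npy had 0.38 and 0.39. The glucocorticoid medians were 1.18 and 0.95, with all 23 genes called in both genotypes.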

How the data were processed

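Each library has its own table of raw counts, as deposited by the authors. Reads were paired, of 150 bases, per the labels' protocols. Per the submitters' processing notes and the file headers, they were aligned with STAR 2.7.10b to mm10 and counted with featureCounts 2.0.1 (Subread) against GENCODE M12 by gene name, as fragments, with every alignment of multi-mapping reads counted and no strand option. Overlapping antisense genes and near-identical copies therefore share counts. Coordinates (mm10, counted from 1) run from the outermost exon bases of each gene in the deposited tables. Of 49568 gene names, 36082 had a count, and 18063 passed edgeR's filterByExpr by group (minimum count 10).

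One model with a mean for each group was fitted to all 35 libraries, with TMM scaling (edgeR 4.0.16 under R 4.3.3, robust glmQLFit and glmQLFTest). For the replicate sets the S662D groups were split into replicates 2 to 4 and replicates 1 and 5. Benjamini-Hochberg adjustment covered every gene tested. CPM values use the TMM-scaled library size. Standard errors come from the quasi-likelihood F statistic. Scripts were tested on simulated data.

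The members and the 39 lists were chosen with earlier results of these data known. Genes named were the marker genes Sgk1, Cdkn1a, Gbp4, Sqle and Per1 with Per2, the 10 largest called rises and 10 largest falls at a mean of at least 1 CPM, at most 4 called genes per pathway list, and those called in replicates 1 and 5 alone. Some genes that the rule names are not reported here. Other genes named were chosen after their values were seen, from the lists or the called genes. A named gene's counts are called uncertain where other genes cover 10% or more of its exon bases, or other genes' transcripts hold 10% or more of its 50-base words (GENCODE M21, both strands), which held for 7 of 67. For other genes the exon overlap alone was used. Alternatives were the libraries, scaling, filter, robust estimation and DESeq2 1.42.0. The same counts for each list were added after the data were seen.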

Additional observations from a re-analysis of the deposited data

Results flagged for a closer look

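In 216 groups of 5 libraries (named genes, list sums and library measures, fed or fasted), 15 held 1 library far from the other 4 by Dixon's ratio (above 0.71). Chance flags about 1 in 20 groups, and these groups are not independent. Fasted replicate 1 was low for Sgk1 (155 CPM, against 279 to 319 CPM in the other 4) and for Arrdc2 (23.0 CPM, against 50.8 to 59.3 CPM). The same library was high for blood markers (1040 CPM summed, against 462 to 627 CPM) and for pituitary markers (4.61 CPM, against 1.56 to 2.44 CPM).

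Fasted replicate 5 was low for Gadd45b (4.50 CPM, against 6.29 to 6.88 CPM) and high for choroid plexus markers (308 CPM, against 26.6 to 56.9 CPM). Fasted replicate 3 was low for the sum of the sterol genes (1490 CPM, against 1580 to 1600 CPM) and high for meningeal markers (111 CPM, against 65.1 to 76.9 CPM). Fasted replicate 2 was high for the sum of the glycolysis genes (13800 CPM, against 11900 to 12400 CPM).

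Among fed libraries, replicate 2 was high for Hspa1b (46.9 CPM, against 25.6 to 31.7 CPM) and for striatal markers (125 CPM, against 67.3 to 78.5 CPM) and low for Rhou (46.3 CPM, against 52.3 to 54.8 CPM). Fed replicate 1 was low for Pdk4 (8.30 CPM, against 9.22 to 9.57 CPM) and high for Rln3 (1.21 CPM, against 0.221 to 0.457 CPM). Fed replicate 5 was high for Cd180 (2.29 CPM, against 1.58 to 1.71 CPM).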

How the results depend on the processing

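The count of 476 genes moved with the libraries used. It was 279 with the 10 S662D libraries fitted alone, 7 with S662D replicates 1 and 5 alone, and 311 to 585 when 1 S662D library was left out, lowest without fasted replicate 2. It was 598 with the replicate sets as a term, 683 with replicates 2 to 4 alone, 637 with DESeq2, 590 without scaling, 368 without a filter on low counts, and 472 to 496 under the other scalings, a minimum count of 50 and no robust estimation. The difference between S662D and control mice, with 0 genes called, gave 486 with control replicates 1 to 5, 9 with S662D replicates 2 to 4 and 0 to 0 when 1 S662D library was left out. No fit without a single control library was run for it. The difference between the replicate sets gave 1 with the S662D libraries alone, 10 with DESeq2 and 0 to 2 when 1 library of replicates 2 to 4 was left out, with 2 without fasted replicate 3, and no fit without a library of replicates 1 or 5 was run for it. The causes were not tested. Fed and fasted libraries share replicate numbers. Their deviations from the group means correlated by −0.109 to 0.160 between same numbers, and not every library correlated best with its own number. These correlations cannot show whether the numbers pair the samples, since the deviations also correlated by replicate set. The replicate block in a fit of the S662D libraries gave 381 called genes. With that block 14 of 23 glucocorticoid genes were called, and Cdkn1a, Plin4 and Arrdc2 missed the threshold (adjusted p 0.138, 0.146 and 0.0856 by edgeR). The block called 2 sterol genes lower and 7 mitochondrial, 5 respiratory chain, 3 ribosomal and 1 cold-inducible gene higher. Of 67 genes named by the rule, 65 were called, 45 of these held when any 1 S662D library was left out, 59 lost their call with replicates 1 and 5 alone, and 0 reversed. Fam43a, Net1, Plekhf1, Rhou, Sgk1 and Sox2 held under every alternative run. With a median standard error of 0.093 on the log2 scale, a change near the median of the sterol list (−0.13) could not be told from 0 in most single genes.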

Other observations

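Some called genes outside the lists were chosen after their values were seen, so they describe single genes and no group. Pnpla2, the triglyceride lipase that opens lipolysis, had 25.0 to 29.0 CPM in fed libraries and 32.9, 67.7, 72.6, 45.7 and 54.2 CPM in fasted replicates 1 to 5, without overlap (log2 fold change 1.04, adjusted p = 0.000139 in edgeR's test). The droplet protein Plin3 (0.41) and the hormone-sensitive lipase Lipe (0.44) rose too. Other genes cover 15.6% of the exon bases of Lipe, so its counts are uncertain. Glul, the glutamine synthetase of astrocytes, had 1295 to 1374 CPM in fed and 1697 to 2155 CPM in fasted libraries (0.53, adjusted p = 3.26e-07).

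Among the genes called lower, Sox1 (−0.36), Sox12 (−0.33), Nes, the filament nestin (−0.56), Fabp7, a fatty acid carrier of radial glia (−0.59), Ednrb, an endothelin receptor of astroglia (−0.49) and Fzd10, a WNT receptor (−0.64), were also picked after their values were seen. Groups did not overlap for Sox1, Sox12 and Ednrb and overlapped for Nes, Fabp7 and Fzd10. Nr3c1, which encodes the glucocorticoid receptor, had 103 to 124 CPM in fed and 80.5 to 105 CPM in fasted libraries and was called lower (−0.33, adjusted p = 0.00517), with a value of −0.25 in control mice.

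Among genes called in S662D and not in control mice, the smallest unadjusted p for a difference between the responses were those of Stac2 (0.45 in S662D and 0.02 in control mice, p = 0.000178 in edgeR's test across all genes), Adm (1.12 and 0.28, p = 0.000471), Fth1, the ferritin heavy chain (0.32 and 0.07, p = 0.000517), and Pvalb, the calcium buffer parvalbumin (0.58 and 0.04, p = 0.000534). Pvalb had 37.1 to 41.1 CPM in fed and 49.6 to 73.1 CPM in fasted S662D libraries, without overlap. None passed the adjusted threshold, and since these genes were chosen for being called in S662D and not in control mice, the choice itself favours a small p.

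Deviations of fed and fasted libraries from their group means correlated by sets. Across genes, which are not independent replicates, the correlations of fed replicates 1 and 5 with fasted replicates 1 and 5 were 0.104 to 0.199, with fasted replicates 3 and 4 they were −0.143 to −0.122, and with fasted replicate 2 they were 0.030 and −0.075.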
